A study of Mus musculus with 8 samples.

Results

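The 9 genes described here encode transcription factors of the splanchnic mesenchyme and of the mesothelium, the tissues that surround the pancreatic epithelium in the embryo: *Barx1*, *Nkx3-2*, *Nkx2-5*, *Tlx1*, *Foxf1*, *Foxf2*, *Foxl1*, *Tcf21* and *Wt1*. They were chosen by name from the 24341 genes for which the authors deposited an FPKM value (fragments scaled to transcript length and to the mapped reads of the library) in each library, and all 9 are in the table. Total RNA was sequenced from single pancreas buds at E11.0 (about 40 somites), from 5 WT and 3 *Lats1/2PanKO* embryos, the strain of both being labelled CD1. *Lats1/2PanKO* buds carry floxed alleles of *Lats1* and *Lats2* and the early *Pdx1Cre* driver (*Pdx1Cre-early;Lats1f/f;Lats2f/f*), so that Cre is made where the *Pdx1* promoter is active, in the pancreatic epithelium, whereas the 9 factors are known from the tissue around it. According to the labels, mesenchyme was pulled away from every bud with forceps before RNA was isolated, and each library is 1 bud.

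During organ formation the splanchnic mesoderm wraps the gut tube and its buds, and a shared set of homeobox and forkhead factors gives it regional identity. Hedgehog ligands from the gut epithelium act on *Foxf1*, *Foxf2* and *Foxl1* in this layer, *Barx1* marks stomach mesenchyme, and *Nkx3-2*, *Nkx2-5* and *Tlx1* mark the mesenchyme beside the dorsal pancreas from which the spleen forms. *Tcf21* and *Wt1* act in visceral mesenchyme and in the mesothelium that covers the organs, and loss of *Tlx1*, *Tcf21* or *Wt1* can leave the mouse embryo without a spleen.

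The deposited values show that the buds were not free of these tissues. *Col3a1*, a fibrillar collagen of mesenchyme, stood at 78.4 to 141 FPKM in WT and 46.4 to 94.1 FPKM in *Lats1/2PanKO*, beside *Epcam*, a surface protein of epithelium, at 31.4 to 46.9 and 56 to 137 FPKM. *Pdx1*, the factor that marks the pancreatic epithelium, was at 9.96 to 21.8 FPKM in WT and 15.3 to 48.5 FPKM in *Lats1/2PanKO*. *Lats1* was lower in all 3 *Lats1/2PanKO* libraries (10.1 to 13.8 FPKM) than in any WT library (14.1 to 16.6 FPKM, exact permutation p = 0.0179, limma adjusted p = 0.269). The same held for 3.06% of all genes tested. *Lats2* overlapped between genotypes (11.1 to 13.4 against 11.6 to 14.7 FPKM, exact permutation p = 0.143, limma adjusted p = 0.589). These values cover the whole gene and all cells of a bud, so they do not measure deletion in the epithelium. The worth of 1 fragment per kilobase, read from the steps in low-level genes with a single exon, was 0.10 to 0.107 FPKM except in WT replicate 5 (0.132 FPKM), the shallowest library. *Lats1/2PanKO* replicate 3 stood apart from the other libraries: the mean log2(FPKM + 1) of 14 epithelium markers was 5.94 in it, 4.78 and 5.01 in the other *Lats1/2PanKO* libraries and 3.89 to 4.21 in WT, and the factors and list medians are therefore given with and without it. In whole buds, fewer cells of a type and less RNA per cell cannot be told apart.

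Promoter sequences (RefSeq, GRCm38.p6; 250 bases before to 50 after the annotated start, 5′ to 3′ on the gene's strand) were found for 6 of the 9 genes, namely *Barx1*, *Nkx3-2*, *Nkx2-5*, *Tlx1*, *Foxf2* and *Tcf21*. Those of *Barx1*, the most abundant of the factors, and of *Tlx1* and *Tcf21*, the pair with the highest correlation over the 8 libraries, are shown. Capitals mark letters that read GGAATT on the opposite strand, a sequence bound by TEAD factors.
Barx1, chr13:48662786-48663085, plus strand: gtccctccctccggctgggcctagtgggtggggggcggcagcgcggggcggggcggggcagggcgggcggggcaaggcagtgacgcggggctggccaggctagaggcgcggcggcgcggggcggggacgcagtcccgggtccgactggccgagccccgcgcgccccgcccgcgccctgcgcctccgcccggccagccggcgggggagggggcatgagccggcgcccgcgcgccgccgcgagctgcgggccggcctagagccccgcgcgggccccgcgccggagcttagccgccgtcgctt
Tlx1, chr19:45150465-45150764, plus strand: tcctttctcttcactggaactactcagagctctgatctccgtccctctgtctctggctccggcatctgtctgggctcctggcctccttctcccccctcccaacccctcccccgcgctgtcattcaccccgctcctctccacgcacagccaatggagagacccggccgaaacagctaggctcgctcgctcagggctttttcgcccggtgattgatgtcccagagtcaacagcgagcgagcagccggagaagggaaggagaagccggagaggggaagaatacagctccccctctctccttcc
Tcf21, chr10:22820094-22820393, minus strand: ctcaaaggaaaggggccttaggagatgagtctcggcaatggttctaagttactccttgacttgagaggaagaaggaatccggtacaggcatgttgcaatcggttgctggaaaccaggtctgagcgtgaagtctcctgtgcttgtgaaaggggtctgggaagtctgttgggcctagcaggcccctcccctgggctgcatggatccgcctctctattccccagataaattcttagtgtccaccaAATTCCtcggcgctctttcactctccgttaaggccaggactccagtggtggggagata
The *Barx1* promoter is 84.7% G and C and holds 50 CpG, against 61.7% and 16 CpG for *Tlx1*, 53.3% and 8 CpG for *Tcf21*, and a median of 52.7% and 7 CpG over 32851 RefSeq promoters of the same length. Of all promoters, 99.8% had a lower G and C content than that of *Barx1*. The letters GGAATT and GGAATG (TEAD) and GGGTGGTC (GLI, the factors that act downstream of Hedgehog) were searched on both strands. *Tcf21* alone among the 6 held any of them, GGAATT beginning 8 bases before the start site. GGAATT is found in 12.2% of all promoters, GGAATG in 14.7% and GGGTGGTC in 0.807%, so that a match in 1 of 6 is a description of these windows only.

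In WT buds the 9 factors spanned the range from abundant to barely detected. *Barx1* was highest at 173 to 500 FPKM (mean 334 ± 132 SD, n = 5), and between 164 and 408 places from the top of all genes. *Tcf21* followed with 76.3 ± 17.8 FPKM, *Foxf1* with 47.6 ± 19.1 FPKM and *Nkx2-5* with 42.0 ± 7.82 FPKM, and these 3 ranges overlapped. *Tlx1* was at 24.9 ± 4.94 FPKM and *Nkx3-2* at 14.7 ± 2.30 FPKM, again with overlapping ranges although *Tlx1* was above *Nkx3-2* in 7 of 8 libraries. *Wt1* (6.57 ± 2.26 FPKM) and *Foxf2* (3.56 ± 1.15 FPKM) were lower still, and *Foxl1* was at 0 to 0.105 FPKM. The WT ranges left gaps between *Barx1* and *Tcf21*, between *Nkx2-5* and *Tlx1*, between *Nkx3-2* and *Wt1* and between *Foxf2* and *Foxl1*, and each of those steps held in all 8 libraries. FPKM are scaled to transcript length, so these levels can be set side by side between genes.

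**Figure D1:**
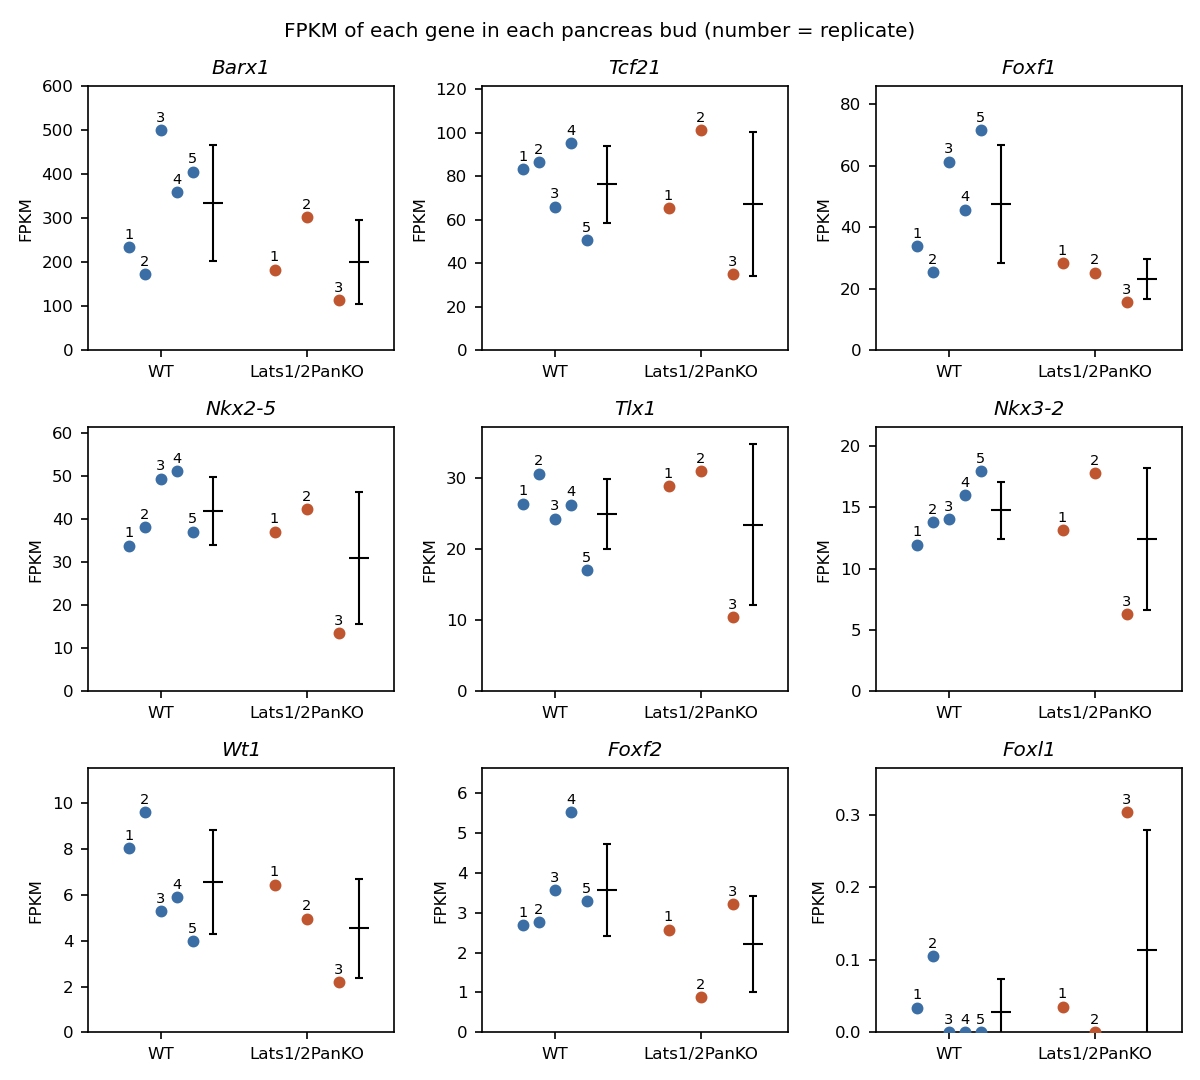
FPKM of each of the 9 genes in each library, on linear axes that start at 0, with 5 WT buds in blue and 3 Lats1/2PanKO buds in orange, the replicate number over each point and black bars for mean ± SD. Lats1/2PanKO replicate 3 is the lowest of the 8 libraries in every panel except Foxf2 and Foxl1, and in no panel do the genotypes separate.

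To ask whether loss of *Lats1/2* from the epithelium went with a different level of these factors, the genotypes were compared with limma on log2(FPKM + 1), with Benjamini-Hochberg adjustment over the 13777 genes whose mean reached 0.5 FPKM. 8 of the 9 factors passed that filter and *Foxl1* did not. None of the 8 was called at an adjusted p under 0.05 (limma called 0.0145% of all genes tested, or 2 genes), and 1 of them, *Foxf1*, had an unadjusted p under 0.05 with a lower level in *Lats1/2PanKO* (4.99% of all genes tested). All 8 had a lower mean in *Lats1/2PanKO*, as did 53.1% of all genes tested. No factor had genotypes that did not overlap, compared with 3.06% of all genes tested that were lower in all 3 *Lats1/2PanKO* libraries than in any WT library. The median log2 fold change of the 8 was −0.52, beside −0.01 over all genes tested. *Lats1/2PanKO* replicate 3 was the lowest of the 8 libraries for 7 of the 8 factors, *Foxf2* being the exception, and for 20.6% of all genes tested. Without that library the median was −0.10, with 5 of the factors lower and 3 higher in *Lats1/2PanKO*.

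**Figure D2:**
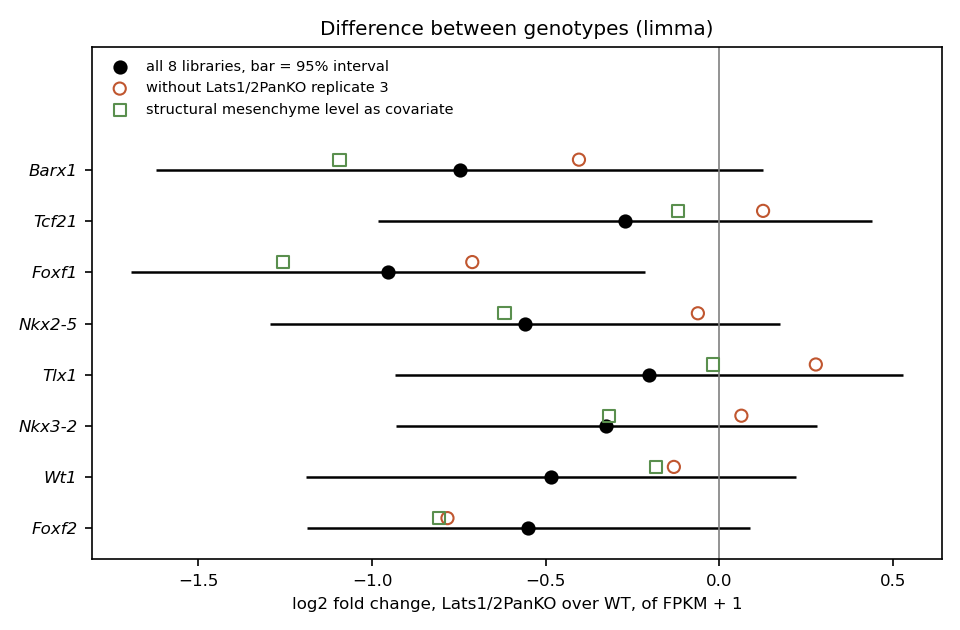
Log2 fold change of FPKM + 1 in Lats1/2PanKO over WT for the 8 tested genes, with the 95% interval of the limma fit as a bar. Open circles leave out Lats1/2PanKO replicate 3 and open squares add the mean level of structural mesenchyme genes as a covariate. Foxf1 is the only gene whose interval ends below 0 (−0.95, from −1.70 to −0.21), and the circles of Nkx3-2, Tlx1 and Tcf21 lie above 0.

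The forkhead factors were examined first. *Foxf1*, which lies on chromosome 8 of GRCm38 from 121084386 to 121088154 and is a target of Hedgehog signaling in gut mesenchyme, was at 33.8, 25.4, 61.4, 45.8 and 71.6 FPKM in WT replicates 1 to 5 and at 28.3, 25.3 and 15.8 FPKM in *Lats1/2PanKO* replicates 1 to 3. *Lats1/2PanKO* replicate 1 was above WT replicate 2 and below the other WT buds, and replicates 2 and 3 were below all 5, replicate 2 by little. Its log2 fold change was −0.95 ± 0.33 (SE; limma adjusted p = 0.330, unadjusted p = 0.0172), and the exact permutation p was 0.0893, the smallest that 56 splits of 5 and 3 buds can give being 0.0179. Without *Lats1/2PanKO* replicate 3 the log2 fold change was −0.71 (limma unadjusted p = 0.0791).

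*Foxf2*, the close relative of *Foxf1* on chromosome 13 (31625816 to 31631406), was at 2.69, 2.76, 3.56, 5.52 and 3.28 FPKM in WT and 2.57, 0.883 and 3.21 FPKM in *Lats1/2PanKO*. Here replicate 2, not replicate 3, was the lowest mutant library. The log2 fold change of −0.55 ± 0.28 (SE; limma adjusted p = 0.523) was −0.20 without *Lats1/2PanKO* replicate 2 and −0.78 without replicate 3 (limma unadjusted p = 0.0284), when the remaining mutant libraries lay below all WT libraries. The ratio of *Foxf1* to *Foxf2* ran from 8.29 to 21.8 in WT and from 4.91 to 28.7 in *Lats1/2PanKO*, a wider span in 3 buds than in 5.

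*Foxl1*, a forkhead gene of the mesenchyme directly beneath gut epithelium (chromosome 8, 121127685 to 121130644), was listed at 0.0341 and 0.105 FPKM in WT replicates 1 and 2 and at 0 in the other WT libraries. In *Lats1/2PanKO* it was at 0.0355 and 0.304 FPKM in replicates 1 and 3 and at 0 in replicate 2. By the fragment steps these values correspond to about 1 and 3 fragments in WT and about 1 and 9 fragments in *Lats1/2PanKO*, and no difference was detectable at this depth (exact permutation p = 0.268). *Lats1/2PanKO* replicate 3, the lowest library for 7 of the other factors, gave the highest *Foxl1* value.

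The homeobox factor *Barx1* (chromosome 13, 48663036 to 48666507) was at 234, 173, 500, 359 and 406 FPKM in WT replicates 1 to 5. In *Lats1/2PanKO* it was at 183, 302 and 115 FPKM, so that replicates 1 and 2 fell inside the WT range and replicate 3 below it. The log2 fold change was −0.75 ± 0.39 (SE; limma adjusted p = 0.526; exact permutation p = 0.179), and −0.40 without *Lats1/2PanKO* replicate 3. WT buds alone differed by 2.90-fold between the highest and the lowest library for *Barx1* and by 2.82-fold for *Foxf1*, against 1.5-fold for *Nkx3-2* and 1.51-fold for *Nkx2-5*.

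Each of the spleno-pancreatic homeobox genes was lowest in *Lats1/2PanKO* replicate 3. WT buds alone differed by 1.51-fold for *Nkx2-5*, 1.5-fold for *Nkx3-2* and 1.79-fold for *Tlx1*. *Nkx2-5* (chromosome 17, 26838665 to 26841565), which is needed for the spleen and the pyloric sphincter and is better known from the heart, was at 33.9, 38.2, 49.4, 51.2 and 37.1 FPKM in WT and 37.1, 42.3 and 13.5 FPKM in *Lats1/2PanKO*. *Nkx3-2* (chromosome 5, 41761483 to 41764220), required for the separation of spleen and pancreas, was at 11.9, 13.8, 14.0, 16 and 17.9 FPKM in WT and 13.1, 17.8 and 6.26 FPKM in *Lats1/2PanKO*. *Tlx1* (chromosome 19, 45150715 to 45156943), the spleen-determining factor also called Hox11, was at 26.4, 30.6, 24.2, 26.2 and 17.1 FPKM in WT and 28.9, 31.0 and 10.4 FPKM in *Lats1/2PanKO*. For each of the 3 genes, *Lats1/2PanKO* replicates 1 and 2 lay inside the WT range, except replicate 2 for *Tlx1*, which was just above it, and replicate 3 lay below every WT library, at 32.1%, 42.5% and 41.8% of the WT mean respectively. The log2 fold changes were −0.56 ± 0.33, −0.32 ± 0.27 and −0.20 ± 0.32 (SE; limma adjusted p = 0.574, 0.707 and 0.867). Without replicate 3 they were −0.06, 0.06 and 0.28, so that *Nkx3-2* and *Tlx1* changed sign.

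*Tcf21* (chromosome 10, 22817275 to 22820128), a basic helix-loop-helix factor, was at 83.3, 86.4, 66.0, 95.2 and 50.8 FPKM in WT and 65.5, 101 and 35.0 FPKM in *Lats1/2PanKO*, so that the mutant buds held both the highest and the lowest value. Its log2 fold change was −0.27 ± 0.32 (SE; limma adjusted p = 0.799), and 0.13 without *Lats1/2PanKO* replicate 3. *Wt1* (chromosome 2, 105126529 to 105173614), a zinc finger factor of the mesothelium, was at 8.05, 9.62, 5.29, 5.90 and 3.97 FPKM in WT and 6.45, 4.97 and 2.19 FPKM in *Lats1/2PanKO*. *Lats1/2PanKO* replicates 1 and 2 were again inside the WT range. *Wt1os*, annotated on the opposite strand beside *Wt1*, was at 0.389 FPKM or lower in every library, and the methods give a stranded setting for the alignment. The log2 fold change of *Wt1* was −0.48 ± 0.31 (SE; limma adjusted p = 0.612), and −0.13 without *Lats1/2PanKO* replicate 3.

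The composition of the set varied between WT buds. *Barx1* made up 45.5% to 69.1% of the summed FPKM of the 9 factors in WT and 50.2% to 57.5% in *Lats1/2PanKO*, while *Tcf21* made up 8.35% to 22.8% and 17.4% to 19.3%, so that the *Lats1/2PanKO* shares of both lay inside the WT range. WT replicates 3, 4 and 5 had higher *Barx1* and *Foxf1* than WT replicates 1 and 2, and WT replicates 1 and 2 had the higher *Wt1* and, except for WT replicate 4, the higher *Tcf21*. *Barx1* was therefore 5.65 times *Tlx1* in WT replicate 2 and 23.8 times in WT replicate 5, and the 3 *Lats1/2PanKO* ratios (6.35 to 11) fell within that WT range. The ratio of *Foxf1* to *Tcf21* was 0.294 to 1.41 in WT and 0.250 to 0.450 in *Lats1/2PanKO*.

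**Figure D3:**
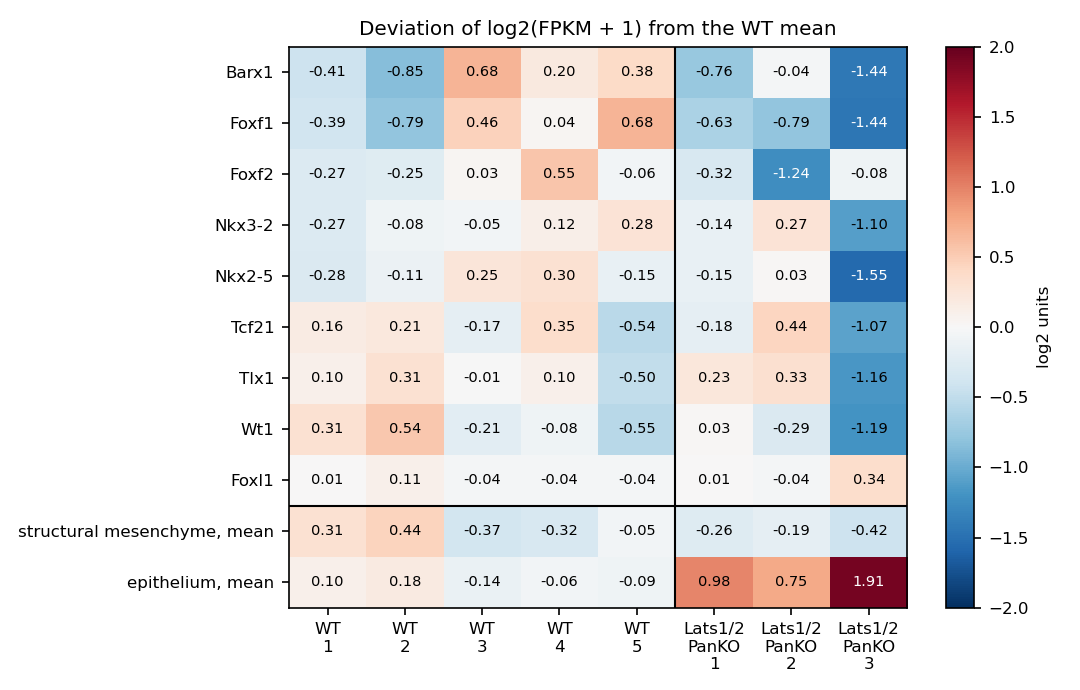
Deviation of log2(FPKM + 1) of each gene from its WT mean in each of the 8 libraries, with the mean over structural mesenchyme genes and over epithelium genes in the lower rows. Barx1 and Foxf1 share their signs in every library, from −1.44 in Lats1/2PanKO replicate 3 to 0.68 in WT, and Lats1/2PanKO replicate 3 combines deviations of −1.07 or lower in 7 genes with 1.91 for epithelium.

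Over the 8 libraries, log2(FPKM + 1) correlated between pairs of the 8 tested factors with Pearson's r from −0.30 to 0.92, and 24 of the 28 pairs had a positive r. Without *Lats1/2PanKO* replicate 3, 15 of the 28 were positive. The pairs *Barx1* with *Foxf1* and *Tlx1* with *Tcf21* had an adjusted permutation p under 0.05 for Pearson's r over the 28 pairs, and no pair had one for Spearman's rho. *Barx1* and *Foxf1* had r = 0.90 (exact permutation p = 0.00288, adjusted p = 0.0458) and rho = 0.83 (exact permutation p = 0.0154, adjusted p = 0.389). The r was 0.84 without *Lats1/2PanKO* replicate 3 and 0.78 without the libraries farthest from the median of *Barx1*, WT replicate 3 and *Lats1/2PanKO* replicate 3. *Tlx1* and *Tcf21* had r = 0.92 (exact permutation p = 0.00327, adjusted p = 0.0458) and rho = 0.76 (exact permutation p = 0.0368, adjusted p = 0.389). Their r was 0.79 without *Lats1/2PanKO* replicate 3. It was 0.44 without the libraries farthest from the median of *Tlx1*, WT replicate 5 and *Lats1/2PanKO* replicate 3. Leaving those out narrows the range of *Tlx1*, which can lower r by itself. *Tlx1* and *Foxf1* had r = 0.17 over all libraries and −0.90 without *Lats1/2PanKO* replicate 3. The r and its permutation p pool both genotypes, so a genotype difference shared by the genes of a pair enters them. All genes share the depth of their library, and 5 or 3 buds of a genotype are too few for an r within it.

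**Figure D4:**
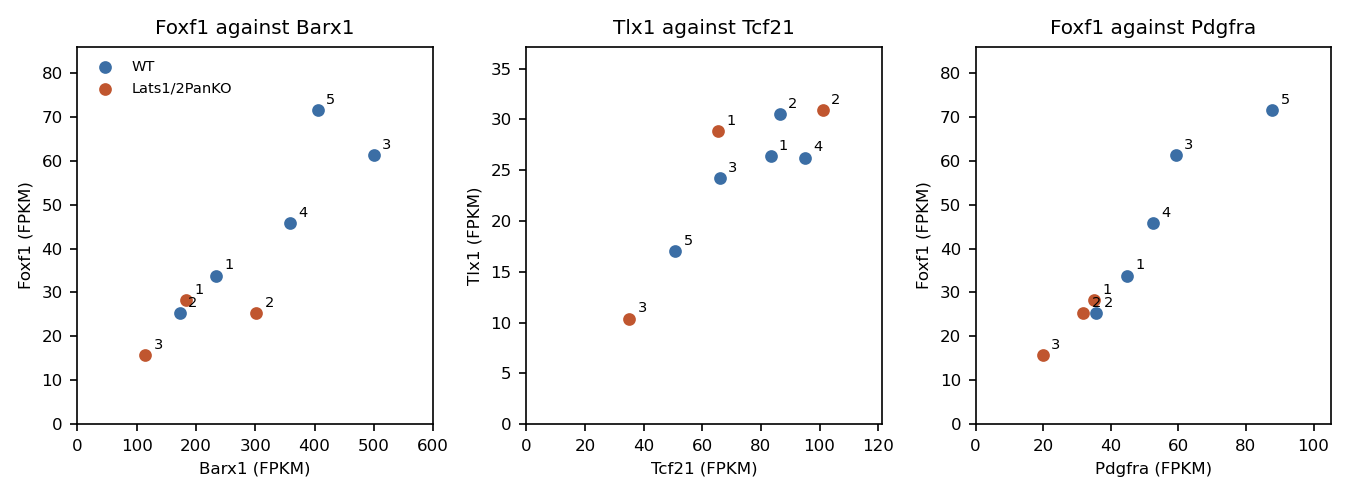
FPKM of Foxf1 against Barx1, of Tlx1 against Tcf21 and of Foxf1 against Pdgfra, 1 point per library with its replicate number, WT in blue and Lats1/2PanKO in orange, on linear axes that start at 0. On the log2(FPKM + 1) scale Foxf1 had r = 0.90 with Barx1 and r = 0.98 with Pdgfra, which was picked as the highest r among 11466 genes. In the middle panel WT replicate 5 and Lats1/2PanKO replicate 3 are the lowest for both genes.

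Among the 11466 other genes whose mean reached 2 FPKM, the pattern most like that of *Foxf1* over the 8 libraries was that of *Pdgfra* (r = 0.98, and 0.97 without *Lats1/2PanKO* replicate 3), the PDGF receptor of mesenchymal cells. *Pdgfra* was at 44.8, 35.5, 59.2, 52.4 and 87.8 FPKM in WT and at 35.0, 31.8 and 19.9 FPKM in *Lats1/2PanKO*, and its genotypes did not overlap (log2 fold change −0.90 ± 0.28 SE, limma adjusted p = 0.292). *Tspan5*, a tetraspanin, and *Nup155*, a nuclear pore subunit, came next. The patterns most like that of *Barx1* were those of *Eno3*, the muscle enolase (r = 0.99), *Il17rd*, an inhibitor of FGF signaling, and *Hoxa6*, a homeobox gene of axial position. *Hoxa6* had r = 0.98 with *Barx1*, and 0.99 without *Lats1/2PanKO* replicate 3. *Hmga2*, a chromatin protein of embryonic cells, was most like *Nkx2-5* (r = 0.98), and *Pard6g*, a cell polarity gene, most like *Nkx3-2* (r = 0.98). *Ecel1*, an endopeptidase, was most like *Tlx1* (r = 0.97), *Sppl3*, a membrane protease, most like *Tcf21* (r = 0.96), and *Ufc1*, of the ufmylation pathway, most like *Foxf2* (r = 0.93). *Wt1* was most like *Smad5*, which carries BMP signals (r = 0.98), and *Klhl29* and *Dcn*, the collagen-binding proteoglycan decorin, followed (r = 0.97 for each). With 8 libraries and this many genes compared, such values are a ranking and not a test.

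The other genes of the same tissues were then described by list. Of 30 further mesenchymal transcription factors 27 were tested, of which 24 had a lower and 3 a higher mean in *Lats1/2PanKO* with a median log2 fold change of −0.32, and limma called none after adjustment. The median was −0.20 without *Lats1/2PanKO* replicate 3, with 23 lower and 4 higher. At an unadjusted p under 0.05, 9 were lower and 1 was higher, beside 687 lower and 866 higher of all 13777 genes tested. The smallest unadjusted p-values were those of *Twist2* (log2 fold change −0.67, limma adjusted p = 0.250), *Hlx*, a homeobox gene of visceral mesenchyme (−0.69, limma adjusted p = 0.291), and *Hand1* (−0.81, limma adjusted p = 0.315). The most abundant, the nuclear receptor *Nr2f2*, was at 168 to 194 FPKM in WT and 92.8 to 174 FPKM in *Lats1/2PanKO*. *Prrx1*, a homeobox gene of limb and head mesenchyme and the 1 that was higher, was at 0.221 to 0.775 FPKM in WT and 0.572 to 2.2 FPKM in *Lats1/2PanKO* (log2 fold change 0.61, limma adjusted p = 0.400).

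All 14 tested genes of 16 for mesenchymal signals had a lower mean in *Lats1/2PanKO* (median −0.44). None was called after adjustment, and 6 were lower at an unadjusted p under 0.05, beside 4.99% of all genes tested. *Pdgfra* is on this list and on that of structural mesenchyme markers. Without *Lats1/2PanKO* replicate 3 12 were lower and 2 higher, with a median of −0.26. *Aldh1a2*, which makes retinoic acid in mesenchyme and mesothelium, was at 25.1, 17.7, 15.8, 12.2 and 25.9 FPKM in WT and 5.91, 4.59 and 5.25 FPKM in *Lats1/2PanKO*. Every mutant library, not replicate 3 alone, was below every WT library, with a log2 fold change of −1.66 ± 0.23 (SE; limma adjusted p = 0.0631), a larger fold change than that of any of the 8 tested factors. *Cxcl12*, a chemokine of the same list, overlapped (22.1 to 46.1 FPKM in WT, 24.3 to 39.1 FPKM in *Lats1/2PanKO*).

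A list of 14 genes held Hedgehog ligands and genes that receive, carry out or respond to their signals. The ligands *Shh*, *Ihh* and *Dhh* did not pass the filter, with highest values of 0.342, 0.773 and 0.315 FPKM. Of the list 10 were tested and all 10 had a lower mean in *Lats1/2PanKO* (median −0.26). None was called after adjustment, and 4 were lower at an unadjusted p under 0.05, beside 4.99% of all genes tested. The median was −0.11 without *Lats1/2PanKO* replicate 3, with 9 lower and 1 higher. *Gli3*, a transcription factor of the pathway, was at 25.0 to 29.3 FPKM in WT and 18.0 to 22.9 FPKM in *Lats1/2PanKO* (log2 fold change −0.38 ± 0.09 SE, limma adjusted p = 0.195). *Ptch1*, the receptor and a target of the pathway, was at 18.2 to 27.4 FPKM in WT and 15.7 to 19.1 FPKM in *Lats1/2PanKO* (−0.42, limma adjusted p = 0.275). *Smo*, the transducer, differed by −0.08.

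Around *Foxf1* on chromosome 8, the highest coordinate of the long noncoding RNA *Fendrr* (121054882 to 121083110) lies 1276 bases below the lowest of *Foxf1*. *Fendrr* was at 9.97, 7.03, 15.4, 9.08 and 30.3 FPKM in WT and at 5.95, 6.77 and 3.78 FPKM in *Lats1/2PanKO*, so that the genotypes did not overlap. Its log2 fold change was −1.09 ± 0.40 (SE; limma adjusted p = 0.359; exact permutation p = 0.107). *Mthfsd*, another neighbour, differed by 0.07 (9.65 to 12.7 FPKM in WT, 11 to 13.0 FPKM in *Lats1/2PanKO*). *Foxc2*, a further neighbour, differed by −0.55 (limma adjusted p = 0.550), at 0.349 to 2.25 FPKM in WT and 0.253 to 0.995 FPKM in *Lats1/2PanKO*. Of 8 genome neighbours of the factors 5 were tested and 4 had a lower mean (median −0.15, and −0.14 without *Lats1/2PanKO* replicate 3).

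Markers of the tissues that could carry these factors were examined beside them. Of 16 structural mesenchyme markers 15 were tested, 13 with a lower and 2 with a higher mean in *Lats1/2PanKO* (median −0.35, and −0.20 without *Lats1/2PanKO* replicate 3), and their mean log2(FPKM + 1) was 3.54 to 4.34 in WT and 3.49 to 3.72 in *Lats1/2PanKO*. WT replicates 1 and 2, the highest for *Wt1*, were also the highest for this mean (4.21 and 4.34). *Vim*, vimentin, was 1 of the 2 higher genes (361 to 481 FPKM in WT, 464 to 602 FPKM in *Lats1/2PanKO*; log2 fold change 0.27, limma adjusted p = 0.468). With the structural mesenchyme mean as a covariate, the log2 fold change of *Foxf1* was −1.26 (limma unadjusted p = 0.00445, adjusted p = 0.421). It was −1.09 for *Barx1* (limma unadjusted p = 0.0214, adjusted p = 0.505) and −0.81 for *Foxf2* (limma unadjusted p = 0.0192, adjusted p = 0.505). The others were −0.62 for *Nkx2-5*, −0.32 for *Nkx3-2*, −0.18 for *Wt1*, −0.12 for *Tcf21* and −0.02 for *Tlx1*. Of all 13777 genes in that fit 0 were called after adjustment, and 1248 had a limma unadjusted p under 0.05. The covariate included *Vim*, *Acta2* and *Tagln*, whose proteins the paper reports in the mutant epithelium at later stages. In *Lats1/2PanKO* replicate 3 they were at 602, 8.93 and 9.18 FPKM, each the highest of all libraries. The covariate therefore does not measure mesenchyme alone, and the part of tissue composition in the differences was not tested.

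For the mesothelium, 6 of 10 listed markers were tested and all 6 had a lower mean in *Lats1/2PanKO* (median −0.37, and −0.31 without *Lats1/2PanKO* replicate 3). At an unadjusted p under 0.05, 3 of them were lower, beside 4.99% of all genes tested. The summed level of the list was 59.2 to 69.8 FPKM in WT and 43.2 to 54.7 FPKM in *Lats1/2PanKO*, most of it *Podxl*. *Lrrn4*, a mesothelial membrane protein, was at 1.33 to 3.17 FPKM in WT and 0.285 to 0.980 FPKM in *Lats1/2PanKO* (log2 fold change −0.78, limma adjusted p = 0.322), and *Bnc1*, the zinc finger factor basonuclin, was at 12.2 to 16.5 and 3.83 to 12.4 FPKM (−0.81, limma adjusted p = 0.335). *Msln*, mesothelin, and *Dmkn* were listed at 0 in all 5 WT libraries and reached 0.290 and 0.181 FPKM in *Lats1/2PanKO*. Their lowest *Lats1/2PanKO* values were 0.0474 and 0 FPKM. With 1 fragment per kilobase worth 0.10 to 0.107 FPKM in the mutant libraries, these values rest on few fragments.

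Epithelium markers went the other way: 13 of 14 had a higher mean in *Lats1/2PanKO* (median 1.3, and 0.94 without *Lats1/2PanKO* replicate 3), 12 of them with no overlap between genotypes, beside 4.46% of all genes tested that were higher with no overlap. Their summed level was 264 to 340 FPKM in WT and 517, 616 and 1269 FPKM in *Lats1/2PanKO* replicates 2, 1 and 3, the order opposite to that of the summed factors (526, 365 and 201 FPKM). *Krt19*, a keratin of ducts, was at 2.13 to 4.05 FPKM in WT and 13.4 to 47.0 FPKM in *Lats1/2PanKO* (limma adjusted p = 0.0747). All 8 endothelium markers had a lower mean in *Lats1/2PanKO* (median −0.40), and *Lats1/2PanKO* replicate 3 was the lowest library for 7 of them (median −0.22 without it). The median was 0.63 for 6 liver markers, 0.31 for 6 nerve and neural crest markers, 0.28 for 7 red blood cell markers, 0.14 for 2 tested heart muscle markers, 0.12 for 5 tested leukocyte markers and 0.03 for 3 tested gonad, adrenal and mesonephros markers. Without *Lats1/2PanKO* replicate 3 these medians were 0.27 for liver, 0.13 for nerve and neural crest, 0.31 for red blood cells, 0.41 for heart muscle, where 1 gene was still tested, 0.27 for leukocytes and 0.03 for gonad, adrenal and mesonephros. For stomach and duodenum epithelium, *Sox2* was the single tested gene of 7 (log2 fold change 0.31) and the summed level was at most 1.44 FPKM in WT and 2.67 FPKM in *Lats1/2PanKO*.

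**Figure D5:**
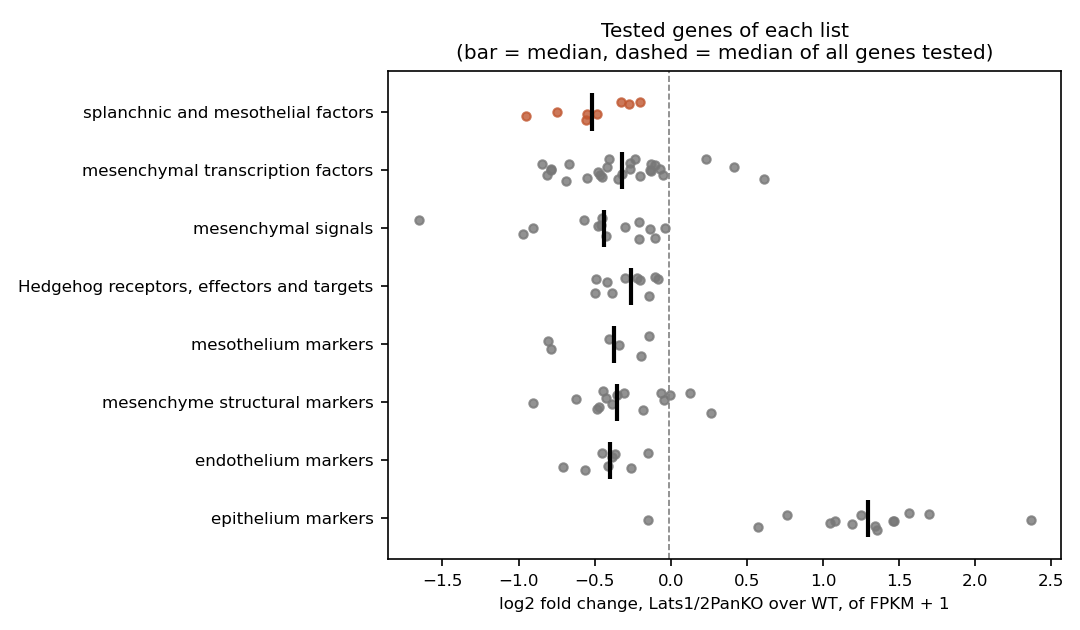
Log2 fold change of FPKM + 1 in Lats1/2PanKO over WT for each tested gene of 8 lists, with a black bar for the list's median and a dashed line for the median of all 13777 genes tested. The 8 splanchnic and mesothelial factors (orange, median −0.52) all lie below 0 along with most genes of the mesenchymal, mesothelial and endothelial lists, and the epithelium markers lie above 0 with 1 exception.

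Several of the 9 factors are also used by other organs, and the genes listed for those organs were low except for *Six2*. For heart muscle, where *Nkx2-5* acts, the summed level of 6 markers was 1.64 to 6.74 FPKM in WT and 3.75 to 6.86 FPKM in *Lats1/2PanKO*, no marker being above 5.04 FPKM (*Myl7*), beside *Nkx2-5* itself at 13.5 to 51.2 FPKM over the 8 libraries. For somite and sclerotome, where *Nkx3-2* acts, the 6 markers summed to at most 0.620 FPKM, and *Uncx* was listed at 0 in every library. For gonad, adrenal and mesonephros, where *Wt1* and *Tcf21* act, *Nr5a1*, *Pax2* and *Pax8* were at 0.266 FPKM or lower in every library. *Star* (1.47 to 2.12 FPKM) and *Lhx9* (0.324 to 2.94 FPKM), of the same list, were higher. *Six2* was the highest of that list at 8.20, 8.32, 35.6, 20.9 and 41.3 FPKM in WT and 12.8, 21.5 and 10.2 FPKM in *Lats1/2PanKO*, with WT replicates 3, 4 and 5 high as for *Barx1* and *Foxf1*. Which cells of the buds carried *Six2* was not tested.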

How the data were processed

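Ribosomal RNA-depleted, stranded libraries of 8 pancreas buds (5 WT, 3 *Lats1/2PanKO*) were trimmed with cutadapt 1.12, aligned to mm10 with TopHat2 2.1.0 and quantified with Cuffdiff 2.2.1, per the submitters' notes and the methods, with 1 value per gene and library and no pooling. The authors deposited FPKM. The methods state quantile normalization, but the columns do not share a distribution and were used as deposited. Groups came from the sample labels, the methods name WT or heterozygous littermates as controls, and the labels do not tie a bud to a litter. Coordinates were shifted to count from 1.

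FPKM are not counts, so limma 3.58.1 (R 4.3.3) was fitted to log2(FPKM + 1) with a mean-variance trend over genes whose mean reached 0.5 FPKM and Benjamini-Hochberg adjustment over all of them. The fold changes are on the log2(FPKM + 1) scale and understate the change of low genes. The fit was tested on simulated data. Exact two-sided permutation tests of mean FPKM used all 56 splits (Python 3.11.15, scipy 1.17.1, matplotlib 3.10.9). Fragment steps came from 393 genes with a single exon and at least 1500 bases. Beside the 9 factors, the text drew on each list's 3 smallest p-values and 3 highest means, and the 3 genes most correlated with each factor. *Pdx1*, *Prrx1*, *Lats1*, *Lats2*, *Acta2*, *Tagln* and single genes listed at or near 0 were added after their values were seen. A further marker is not reported here. The factors and lists were chosen with earlier results of these data known. The settings varied were the pseudocount (0.1), the filter (mean of 2 FPKM, or none), the scaling (quantile or median-ratio), array weights, the trend, a replicate block, a mesenchyme covariate and each library in turn.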

Additional observations from a re-analysis of the deposited data

Results flagged for a closer look

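Among 79 sets of 5 WT values examined (the named genes and the fragment depth), 5 held a library whose gap to its nearest neighbour was large against the range, and chance gives about 1 in 20. WT replicate 5 was the highest in the worth of 1 fragment per kilobase, at 0.132 FPKM, and the lowest for *Lats2*, at 11.6 FPKM. WT replicate 4 was the highest for *Apoa1*, a liver marker, at 9.97 FPKM, and for *Cdx2*, an intestinal factor, at 0.468 FPKM. WT replicate 3 was the lowest for *Krt19*, at 2.13 FPKM. None of the 9 factors was among them.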

How the results depend on the processing

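Of 136 values of the 8 tested factors under 17 alternatives, 132 kept their direction and none had a limma adjusted p under 0.05. The exceptions in direction were *Tlx1* with array weights (0.029) and, without *Lats1/2PanKO* replicate 3, *Nkx3-2*, *Tlx1* and *Tcf21*, whose values with a library left out ran from −0.62 to 0.064, −0.47 to 0.28 and −0.63 to 0.13, the lowest without *Lats1/2PanKO* replicate 2. *Foxf1* kept an unadjusted p under 0.05 in 14 of 17 and lost it with array weights, the replicate block and without *Lats1/2PanKO* replicate 3. The number of all genes called was 2, and 18 with a pseudocount of 0.1, 174 with array weights, 1 without the trend, 1 with the replicate block, 0 with the mesenchyme covariate and 0 to 69 with a library left out, the highest without *Lats1/2PanKO* replicate 2. The median of the factors was −0.27 with array weights and −0.70 to −0.10 with a library left out, from *Lats1/2PanKO* replicate 1 to replicate 3. The number of factors with no overlap was 0 to 1 with a library left out (*Foxf1* without WT replicate 2 or *Lats1/2PanKO* replicate 1, *Foxf2* without *Lats1/2PanKO* replicate 3). The cause was not tested. Same-numbered buds correlated in their deviations from the group means with 0.085, −0.097 and 0.069, and buds of different number with −0.110 to 0.135. No pairing by number was visible, and so few values cannot exclude one. FPKM carry no counts, so no counting interval is given, and 3 mutant buds limit every comparison.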
